A study of Mus musculus with 9 samples.

Results

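The genes examined here encode the contractile machinery and intermediate filaments of smooth muscle, and their transcripts were read as a measure of muscle layer RNA in libraries of mouse corona radiata, the innermost layer of granulosa-derived cells around the oocyte. They were selected by gene symbol and not by a rule on their values, but with earlier results of these data known. The genes are Acta2, Actg2, Myh11, Tagln, Cnn1, Des, Myl9, Lmod1 and Synm, which are 9 of the 54838 genes in the deposited matrix. All 9 have a value above 0 in each of the 9 libraries, in RPKM (reads per kilobase of gene, scaled to library size). Of these, 8 reached 1 RPKM or more in 3 or more libraries and were tested, and Lmod1 did not. The libraries come from adult mice stimulated with PMSG, which drives follicle growth, and hCG, which triggers ovulation. A further term of the treatment label, "J4", is not explained there. There are 3 libraries from each of 3 genotypes. These are wild type (WT), the genotype labelled DKO LXR, which lacks both liver X receptors, nuclear receptors that bind oxysterols (LXR DKO), and the genotype labelled DKO LXR TG-AMH-LXRb, which carries a transgene on the double knockout (transgenic). The labels describe neither the promoter and coding sequence of the transgene nor the deleted parts of the receptor genes. Separate animals are not mentioned, so the p-values cover the spread among these samples alone, and that spread may be technical.

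Smooth muscle shortens when calcium and calmodulin activate myosin light chain kinase, which phosphorylates the regulatory light chain of smooth muscle myosin and lets the myosin heads pull on filaments of smooth muscle actin. Actin-binding proteins such as calponin and transgelin stabilise these filaments or modulate them, and intermediate filaments of desmin and synemin anchor them to dense bodies and the cell membrane. In the female tract, smooth muscle forms the muscle layer of the oviduct and uterus, the walls of vessels and the outer theca of the follicle. Granulosa cells lie inside the follicle, where a basement membrane separates them from these layers. Many genes of smooth muscle are controlled by serum response factor, which binds a DNA element called the CArG box and is assisted there by myocardin and the myocardin-related factors.

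Promoter sequences were looked up because most of these genes varied together across libraries, as described below. RefSeq promoter windows of the GRCm38.p6 build, from 250 bases before the annotated start to 50 bases after it, were found for 6 of the 9 genes: Acta2, Cnn1, Des, Lmod1, Myl9 and Synm. An exact CArG box (CC, then 6 bases that are each A or T, then GG, a pattern that reads alike on both strands) lies in the window of Myl9. A form with 1 C or G among the 6 inner bases lies at 2 places in the window of Acta2 and at 1 place each in those of Myl9 and Synm. The windows of Cnn1, Des and Lmod1 hold neither form. The 3 windows with a match are given 5' to 3' on the strand of the gene, with the matches in capitals. They are chr19:34255324-34255623 on the minus strand for Acta2, chr2:156775214-156775513 on the plus strand for Myl9 and chr7:67759693-67759992 on the minus strand for Synm.
Acta2: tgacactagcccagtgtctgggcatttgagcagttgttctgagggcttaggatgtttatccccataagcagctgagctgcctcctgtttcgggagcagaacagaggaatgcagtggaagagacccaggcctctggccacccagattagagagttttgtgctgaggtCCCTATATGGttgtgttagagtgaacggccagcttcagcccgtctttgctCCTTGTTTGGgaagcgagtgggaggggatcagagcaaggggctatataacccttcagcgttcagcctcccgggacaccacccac
Myl9: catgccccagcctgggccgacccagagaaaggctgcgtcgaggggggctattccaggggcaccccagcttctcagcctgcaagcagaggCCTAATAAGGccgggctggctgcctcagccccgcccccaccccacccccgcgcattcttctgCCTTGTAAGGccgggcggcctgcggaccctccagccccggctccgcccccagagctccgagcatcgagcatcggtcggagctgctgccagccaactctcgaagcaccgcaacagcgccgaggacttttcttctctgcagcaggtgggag
Synm: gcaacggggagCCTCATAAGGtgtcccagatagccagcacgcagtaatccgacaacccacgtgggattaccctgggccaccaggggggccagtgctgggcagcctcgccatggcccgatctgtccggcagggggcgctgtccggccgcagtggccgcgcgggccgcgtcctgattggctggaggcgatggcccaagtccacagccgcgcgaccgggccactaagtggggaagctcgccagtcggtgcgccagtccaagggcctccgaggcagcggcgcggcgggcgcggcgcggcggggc
The Acta2 matches start 84 and 34 bases before the annotated start, those of Myl9 161 (the exact box) and 99 bases before it, and that of Synm 239 bases before it. The exact box occurs in 535 of all 32851 promoter windows of the table (1.63%), and either form in 3280 (9.98%). A list of other smooth muscle apparatus has 54 windows for 37 genes, of which 7 windows hold an exact box and 15 either form. Counted by gene, 6 of the 37 have an exact box in any window (16.2%) and 12 either form (32.4%), beside 1.81% and 11.3% of all 27025 genes of the table. These matches describe letters in a window and say nothing of whether a factor binds there.

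The depth of the libraries, worked back from the RPKM steps, was 31071439 to 45918202 reads in genes. For the tissue named in the labels, 10 granulosa markers were looked up. All 10 were above 0 in every library, for example Foxl2, a transcription factor of granulosa identity, at 3.33 to 7.14 RPKM and Inha, the inhibin alpha subunit, at 150 to 307 RPKM. Cyp19a1 of the same list was lower, at 0.182 to 1.19 RPKM, and below the filter. The 9 muscle genes were also above 0 in every library, so a value above 0 does not by itself identify the tissue. Oocyte and red cell RNA differed between libraries of the same genotype. Oocyte transcripts were abundant in WT 1 and LXR DKO 1 (mean log2(RPKM + 1) over 12 oocyte genes of 6.002 and 3.90, against 0.176 to 1.68 elsewhere), and red cell transcripts in WT 3 (7.31 over 7 genes, against 2.28 to 5.30 elsewhere).

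Acta2 encodes the alpha actin of smooth muscle, the thin filament of the contractile apparatus (chromosome 19, 34241090 to 34255590 on the minus strand of mm10). Its level was 6.99, 5.92 and 61.8 RPKM in WT libraries 1 to 3, 7.85, 58.2 and 6.98 in LXR DKO libraries 1 to 3, and 52.9, 40.1 and 18.5 in the same order in the transgenic ones. A single WT library and a single LXR DKO library stood far above their partners, at the level of the highest transgenic library, so that the highest library was 10.4-fold above the lowest within WT and 8.33-fold within LXR DKO but 2.87-fold within transgenic. The means were 24.9 ± 31.9 RPKM in WT, 24.3 ± 29.3 in LXR DKO and 37.1 ± 17.4 in transgenic (SD, n = 3), and the groups overlapped. In bulk libraries such as these, fewer cells of a type and less RNA per cell cannot be told apart.

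Actg2 encodes the gamma actin of enteric smooth muscle, the actin of the walls of hollow organs (chromosome 6, 83512905 to 83536265, minus strand). It measured 0.773, 1.197 and 15.5 RPKM in the WT libraries, 1.09, 14.0 and 0.782 in those of LXR DKO, and 12.2, 9.48 and 3.16 in the transgenic ones, in the order of their numbers. The same libraries were high and low as for Acta2, over a wider range: 20.04-fold within WT, 17.8-fold within LXR DKO and 3.85-fold within transgenic. Relative to Acta2 in the same library, Actg2 was 23.0% to 25.1% in the 4 libraries WT 3, LXR DKO 2, transgenic 1 and transgenic 2, 17.1% in transgenic 3, 20.2% in WT 2 and 11.1% to 13.9% in the other 3. The coding sequences of both genes are 84.2% identical, with no identical stretch longer than 29 bases. Acta2 shares longer identical stretches with the cytoplasmic actins Actb (47 bases) and Actg1 (56 bases). Those were at 869 to 1529 and 410 to 476 RPKM. The sources used here do not say how reads that map to several places were handled, and the part of such reads in the Acta2 values was not tested.

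**Figure D1:**
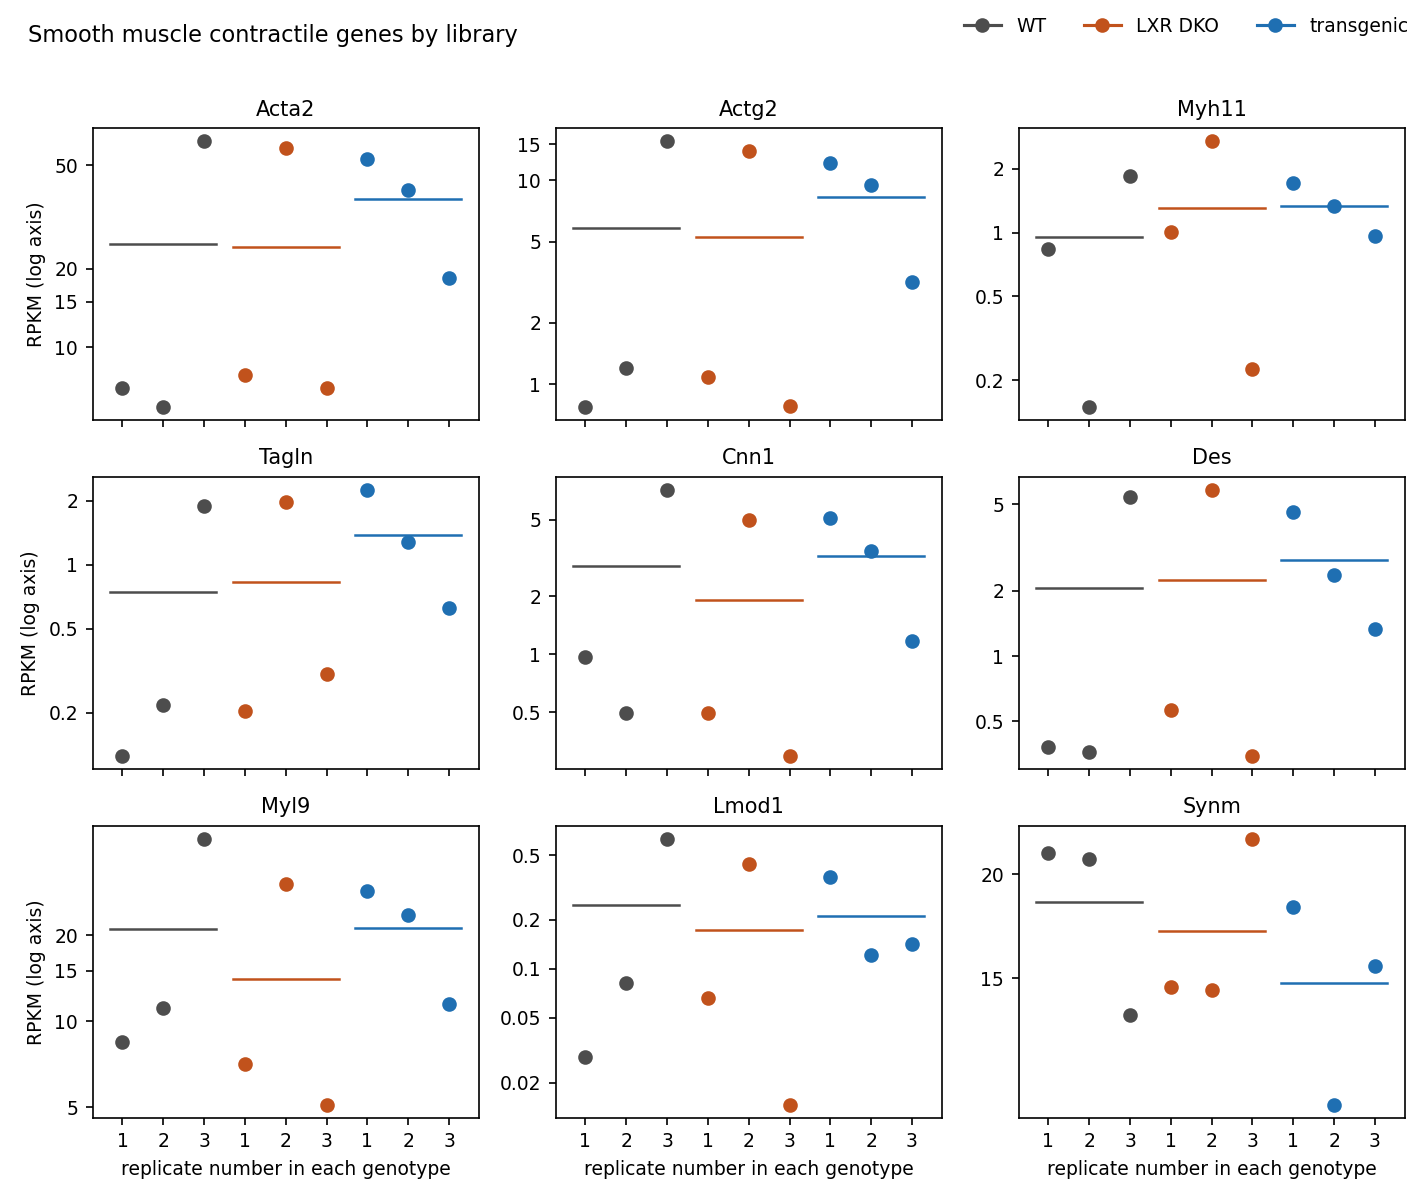
RPKM on a log axis of each of the 9 genes in the 9 libraries, with replicate numbers on the horizontal axis, a colour per genotype and a line at each genotype's mean. WT 3, LXR DKO 2 and transgenic 1 are the highest 3 libraries in every panel except that of Synm, whose axis covers a 2.08-fold range.

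Myh11 encodes the heavy chain of smooth muscle myosin, the motor of contraction and a gene largely restricted to differentiated smooth muscle (chromosome 16, 14194535 to 14291372, minus strand). Its values were 0.834, 0.149 and 1.86 RPKM in the WT libraries, 1.01, 2.71 and 0.225 in those of LXR DKO, and 1.72, 1.33 and 0.962 in the transgenic ones, from 42 to 688 reads. WT 3 and LXR DKO 2 were again the highest of their genotypes, but WT 1 and LXR DKO 1 stood well above WT 2 and LXR DKO 3, which Acta2 did not show. Myh11 was 11.9% and 12.8% of Acta2 in WT 1 and LXR DKO 1 and 2.52% to 5.21% in the other 7 libraries. Those are the libraries with abundant oocyte transcripts, and whether part of their Myh11 RNA came from oocytes was not tested.

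Myl9 encodes the regulatory light chain that myosin light chain kinase phosphorylates (chromosome 2, 156775420 to 156781658, plus strand). It was measured at 8.42, 11.2 and 43.3 RPKM in the WT libraries, 7.08, 30.1 and 5.11 in those of LXR DKO, and 28.6, 23.4 and 11.5 in the transgenic ones. The order of the 5 highest libraries was that of Acta2, but the low libraries were less low: the highest was 5.14-fold above the lowest in WT, 5.88-fold in LXR DKO and 2.48-fold in transgenic. A straight line on Acta2 over the 9 libraries reached 3.68 RPKM of Myl9 and 0.339 RPKM of Myh11 at an Acta2 of 0, whereas such lines ran to slightly below 0 for Actg2, Cnn1, Des and Tagln (-0.957, -0.287, -0.338 and -0.022 RPKM).

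Among the actin-binding proteins, Cnn1 encodes basic calponin, which binds actin and dampens the myosin ATPase (chromosome 9, 22099216 to 22109630, plus strand). Cnn1 stood at 0.963, 0.494 and 7.13 RPKM in the WT libraries, 0.497, 4.96 and 0.297 in those of LXR DKO, and 5.09, 3.46 and 1.17 in the transgenic ones, from 28 to 917 reads. Its highest library was 24.0-fold above its lowest, with the transgenic libraries between the extremes of the other genotypes.

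Tagln encodes transgelin, an actin cross-linking protein of the calponin family (chromosome 9, 45929619 to 45936058, minus strand). It was listed at 0.126, 0.217 and 1.88 RPKM in the WT libraries, 0.204, 1.97 and 0.306 in those of LXR DKO, and 2.25, 1.28 and 0.623 in the transgenic ones, from 11 to 207 reads. The 5 highest libraries were those of Acta2, and over all 9 libraries Tagln was at 1.80% to 4.39% of the Acta2 level. The exons of the antisense gene Gm48529 cover 1241 bases, or 62.4%, of the exons of Tagln on the opposite strand, and exons of Pcsk7 cover another 108 bases. The strand setting and the handling of reads shared by 2 genes do not appear in the sources used here, so the Tagln level relative to the other genes is uncertain, and the part that overlap has in it was not tested.

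Lmod1 encodes leiomodin, which nucleates actin filaments in smooth muscle (chromosome 1, 135324807 to 135368065, plus strand). It had the lowest values of the 9 genes, at 0.0288, 0.0821 and 0.630 RPKM in the WT libraries, 0.0664, 0.439 and 0.0147 in those of LXR DKO, and 0.366, 0.122 and 0.142 in the transgenic ones. These rest on 5, 12 and 117 reads, 11, 58 and 2 reads, and 67, 15 and 19 reads. WT 3, LXR DKO 2 and transgenic 1 were again the highest. The exact 95% Poisson intervals, which cover counting error only, ran from 0.521 to 0.755 RPKM in WT 3 and from 0.00178 to 0.0530 RPKM in LXR DKO 3, so these libraries differed beyond counting error although the gene was too low for the test.

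Des encodes desmin, the main intermediate filament protein of muscle (chromosome 1, 75360329 to 75368579, plus strand). Its level was 0.381, 0.360 and 5.41 RPKM in the WT libraries, 0.565, 5.81 and 0.347 in those of LXR DKO, and 4.60, 2.37 and 1.33 in the transgenic ones. WT 3 and LXR DKO 2 stood apart from the other libraries of their genotype, with ranges of 15.05-fold in WT and 16.7-fold in LXR DKO, and transgenic 1 was close to them.

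Synm encodes synemin, a large intermediate filament protein that assembles with desmin or vimentin (chromosome 7, 67730160 to 67759742, minus strand). It measured 21.2, 20.8 and 13.6 RPKM in the WT libraries, 14.6, 14.5 and 22.0 in those of LXR DKO, and 18.3, 10.6 and 15.5 in the transgenic ones, from 2613 to 7406 reads. Synm did not share the pattern of the other 8 genes. WT 3 was the lowest WT library and LXR DKO 3, where Acta2, Cnn1 and Des were near their lowest, was the highest of all 9. In WT 2, where the other genes were low, Synm was at 352% of the Acta2 level, and in WT 3 at 22.0%.

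The 8 genes other than Synm thus shared their highest libraries. In 8 of 8, the 3 highest libraries were WT 3, LXR DKO 2 and transgenic 1, in varying order, a feature that was noticed after the values were seen. Transgenic 2 was the next highest in 7 of these 8. A straight line on Acta2 took up 99.6% of the variance of Actg2 over the 9 libraries, the highest share of the 8 genes, with a slope of 0.258 RPKM per RPKM of Acta2. Transgenic 3 lay farthest from that line, by 0.634 RPKM. The slopes were 0.523 for Myl9, 0.103 for Cnn1, 0.0935 for Des, 0.0349 for Tagln, 0.0299 for Myh11 and 0.00817 for Lmod1, and -0.0965 for Synm. These lines are descriptions over 9 libraries, and all genes of a library share its depth and scaling.

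**Figure D2:**
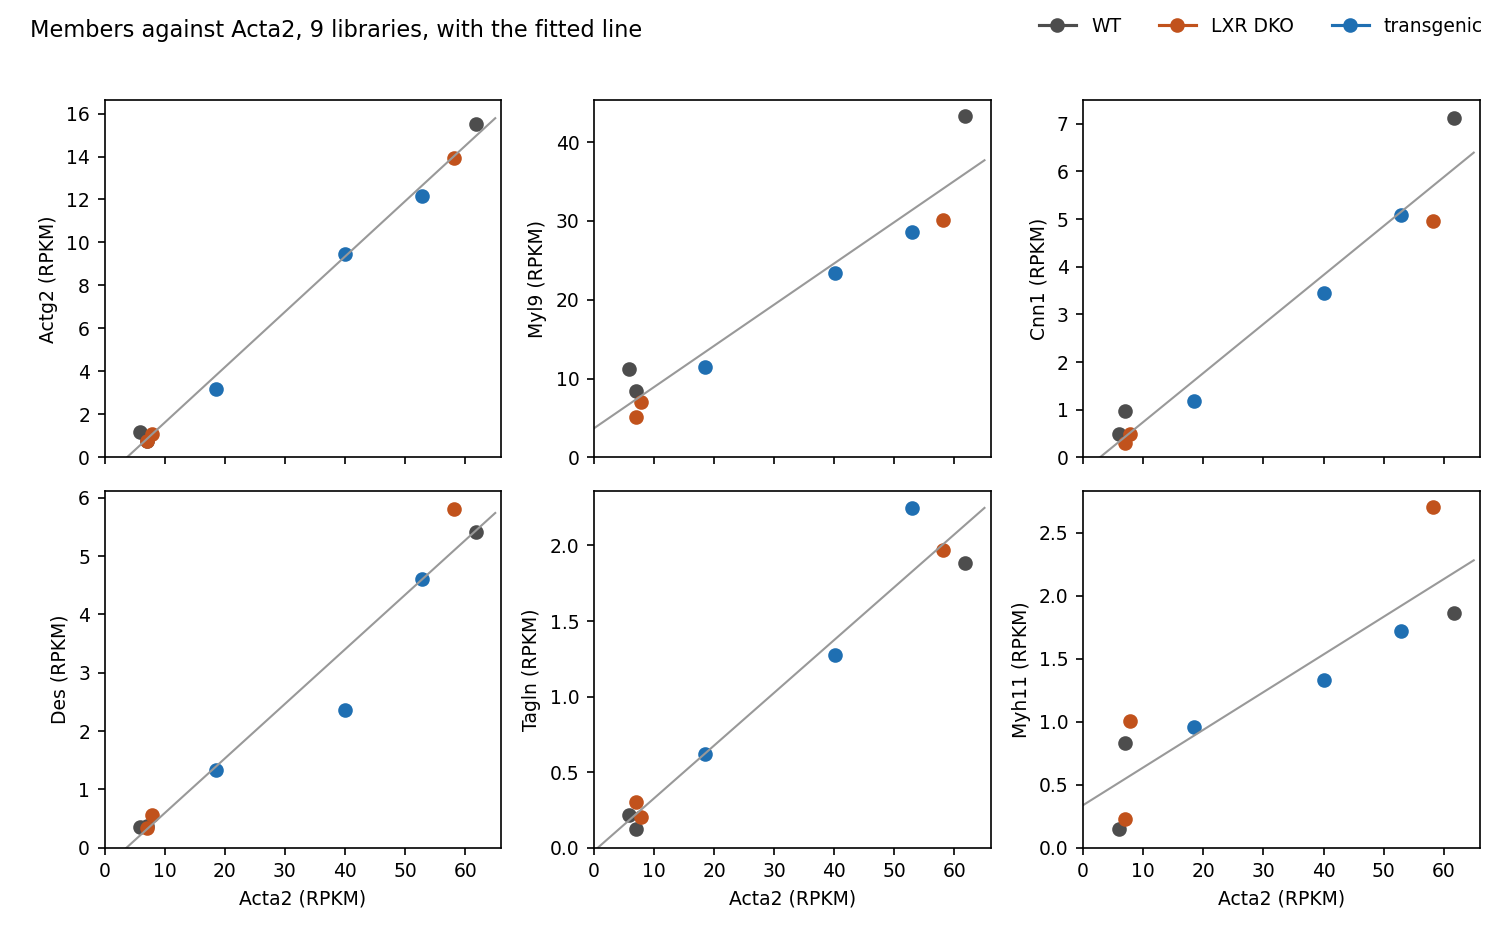
RPKM of 6 genes against RPKM of Acta2 in the 9 libraries, coloured by genotype, with a straight line fitted to all 9. Actg2 stays within 0.634 RPKM of its line, and for Myh11 the points of LXR DKO 1 and WT 1 lie above the line at low Acta2.

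The spread within genotypes was large compared with most genes. The SD of log2(RPKM + 1) within genotypes was 1.51 for Actg2 and 1.46 for Acta2, and only 70 and 77 of the 16422 tested genes had a larger one. It was 1.12 for Cnn1, 1.11 for Des, 1.07 for Myl9, 0.667 for Tagln, 0.613 for Myh11 and 0.349 for Synm, against a median of 0.164 over all tested genes. Genotype accounted for 7.5% (Myh11) to 17.6% (Acta2) of the variance of these 8 genes between libraries, against a median of 41.1% over all tested genes.

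**Figure D3:**
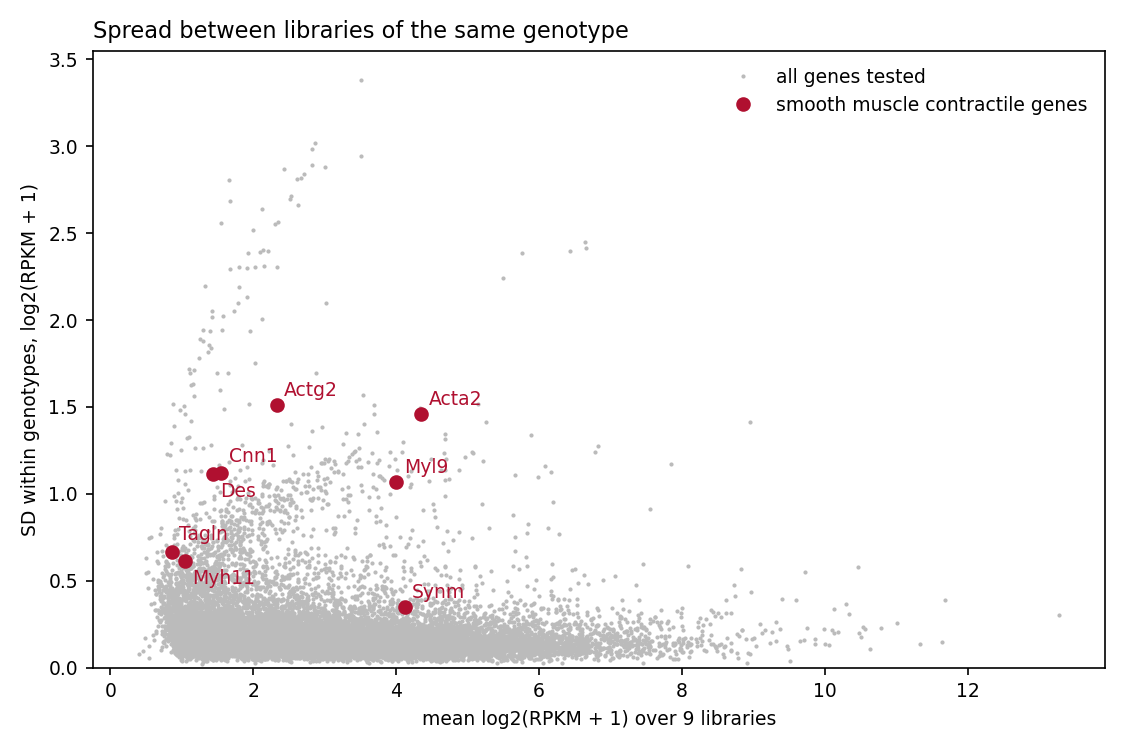
SD of log2(RPKM + 1) between libraries of the same genotype against mean log2(RPKM + 1) for 16422 genes (grey) and the 8 tested smooth muscle genes (red). Actg2 and Acta2 lie at 1.51 and 1.46, and Synm at 0.349, nearest the bulk of genes.

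The first comparison asked whether muscle transcripts differed between LXR DKO and WT. None of the 8 tested genes passed an adjusted p of 0.05 in limma, and none had an unadjusted p under 0.05. Of all 16422 genes, 1739 (10.6%) passed the adjusted threshold in this comparison and 4354 (26.5%) had an unadjusted p under 0.05. The log2 fold changes on the log2(RPKM + 1) scale ran from -0.58 (Myl9) to 0.20 (Myh11), 4 positive and 4 negative, with a median of 0.0055 beside 0.017 over all genes. For Acta2 it was 0.09 ± 0.99 (SE), with an adjusted p of 0.969 in limma. The direction for Acta2, Actg2, Cnn1, Des, Myh11, Myl9 and Tagln depended on single libraries: without WT 3 the Acta2 value was 1.12, and without LXR DKO 2 it was -0.85.

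The second comparison set transgenic against LXR DKO libraries, which share the double knockout and differ in the transgene. Of the 8 genes, 7 had a higher mean log2 value in transgenic and Synm a lower one, none with an adjusted or an unadjusted p under 0.05 in limma. Over all genes, 19 (0.116%) passed the adjusted threshold and 1330 (8.10%) had an unadjusted p under 0.05. The largest log2 fold changes were 1.12 ± 1.02 for Actg2 (adjusted p = 0.824 in limma), 1.12 ± 0.99 for Acta2 (adjusted p = 0.815) and 0.85 ± 0.72 for Myl9 (adjusted p = 0.810). The median of the 8 genes was 0.66, beside 0.013 over all genes. Leaving out single libraries moved these differences from 0.57 to 2.11 for Actg2, from 0.62 to 2.06 for Acta2 and from 0.39 to 1.57 for Myl9. Each was lowest without LXR DKO 3 and highest without LXR DKO 2, where the adjusted p of Acta2 was 0.607.

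The third comparison, transgenic against WT, uses the same transgenic and WT libraries as the comparisons above, so its values are not independent of them. Again 7 of 8 genes had a positive difference and none an adjusted or unadjusted p under 0.05 in limma, while 1949 of all genes (11.9%) passed the adjusted threshold and 4997 (30.4%) had an unadjusted p under 0.05. Acta2 differed by 1.21 ± 0.99 (adjusted p = 0.439), Actg2 by 1.05 ± 1.02 (adjusted p = 0.519) and Synm by -0.31 ± 0.24 (adjusted p = 0.420) in limma. The median of the 8 was 0.49, beside 0.015 over all genes. Without WT 1 and LXR DKO 1, the libraries with oocyte RNA, also 0 of 8 passed in each comparison, and the Acta2 differences were 0.06, 0.69 and 0.75. Over single libraries left out, the differences in this comparison ran from 0.65 to 2.24 for Acta2 and from 0.47 to 2.07 for Actg2, both highest without WT 3. Among the 8 muscle genes, over all comparisons and settings tried, the smallest adjusted p was 0.085 in limma, for Acta2 without WT 3. In all 3 comparisons the groups overlapped for each of the 8 genes, so the order of the genotype means of a gene was within the spread of its libraries. Voom on the read numbers worked back from the RPKM values also passed 0 of 8 genes in each comparison, with lowest adjusted p-values of 0.625, 0.797 and 0.327.

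**Figure D4:**
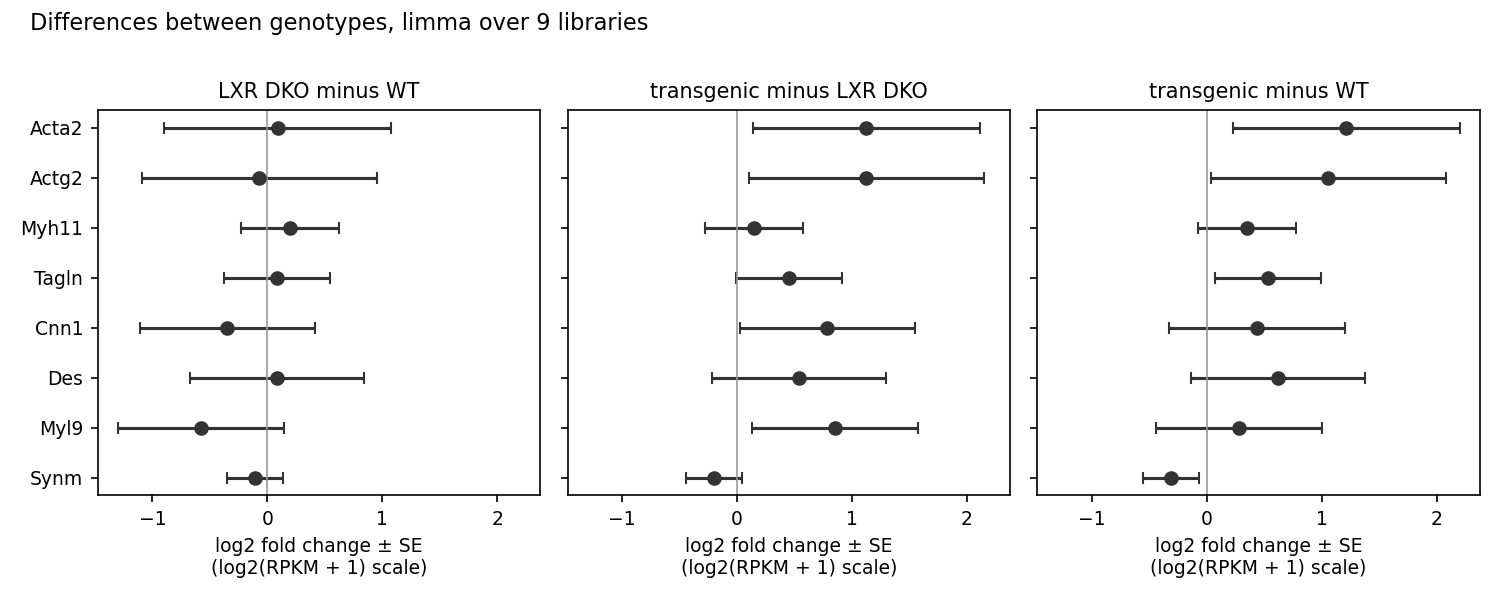
Log2 fold changes with their SE, on the scale of log2(RPKM + 1), of the 8 tested genes in the 3 comparisons, from limma over 9 libraries. The bars of Acta2 and Actg2 are about 1 log2 unit long on each side, and Synm, at -0.31 to -0.11, has the shortest.

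Other genes of the contractile apparatus were taken from a list of 40, of which 30 were tested. In LXR DKO against WT, 0 rose and 3 fell: Cald1, the actin- and calmodulin-binding protein caldesmon (-0.998, adjusted p = 0.00232 in limma), Palld, the actin-bundling protein palladin (-0.46, adjusted p = 0.0185), and Tpm1, an alpha tropomyosin (-0.42, adjusted p = 0.0459). These are 3 of 30 genes, beside 10.6% of all genes in that comparison, so the share is near that of the whole table. In transgenic against LXR DKO, 0 of 30 passed in either direction, beside 0.116% of all genes. In transgenic against WT, Cald1 (-1.05, adjusted p = 0.00180) and Palld (-0.59, adjusted p = 0.00764) fell and Kcnmb1, the beta subunit of the calcium-activated potassium channel of smooth muscle, rose (1.26, adjusted p = 0.0426), again 3 of 30, beside 11.9% of all genes. The medians of the 30 log2 fold changes were 0.085, 0.0061 and 0.15 in the 3 comparisons. Cald1 passed under all 17 other settings in both comparisons, and Palld under 16 of 16 against WT in transgenic and 10 of 16 in LXR DKO. There the call of Palld ended without WT 1, without WT 2, without the second or the third LXR DKO library, in a fit of the 2 genotypes alone, and without WT 1 and LXR DKO 1 together, which gave the highest adjusted p (0.0711). Tpm1 passed under 5 of 17, with an adjusted p of up to 0.156 without LXR DKO 3, and was lost without any 1 of 7 libraries, those other than LXR DKO 1 and transgenic 3. Kcnmb1 passed under 5 of 16, with an adjusted p of up to 0.132 without WT 1 and LXR DKO 1 together, and was lost without any 1 of 7 libraries, those other than WT 3 and transgenic 2.

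Cald1 did not follow the order of libraries of Acta2. It measured 27.6, 31.4 and 24.4 RPKM in WT libraries 1 to 3, 14.5, 13.4 and 12.3 in LXR DKO libraries 1 to 3, and 12.5, 14.8 and 11.5 in the same order in the transgenic ones. All 3 WT libraries lay above all 6 others, and WT 3, the library with the highest Acta2, was the lowest of the WT. Cald1, Palld and Tpm1 are also made in many cells that are not muscle. Kcnmb1, at 0.0921, 0.180 and 1.19 RPKM in the WT libraries, 0.836, 1.54 and 0.747 in those of LXR DKO, and 3.86, 1.37 and 2.34 in the transgenic ones, was highest in WT 3 among the WT and in LXR DKO 2 among the LXR DKO libraries.

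The transcription factors that control smooth muscle genes were examined next. Srf, the factor that binds the CArG box, ranged from 19.0 to 27.4 RPKM, and its log2 fold changes were -0.02, -0.04 and -0.06 in the 3 comparisons. Its coactivators Mkl1 and Mkl2, now named Mrtfa and Mrtfb, were at 3.16 to 5.98 and 2.42 to 3.74 RPKM. Myocd, the coactivator restricted to cardiac and smooth muscle, was at 0.0378 to 0.245 RPKM and below the filter, and it was highest in LXR DKO 1, where Acta2 was low. Of 10 regulators, 7 were tested. In LXR DKO against WT, Elk1, an ETS factor that competes with myocardin for serum response factor (-0.79, adjusted p = 0.00961 in limma), and Gata6 (-0.44, adjusted p = 0.0189) fell and 0 rose. In transgenic against WT, only Elk1 of the 7 passed (-0.67, adjusted p = 0.0180), and in transgenic against LXR DKO 0 of 7 did. Beside these counts, 10.6% of all genes passed in LXR DKO against WT, 11.9% in transgenic against WT and 0.116% in transgenic against LXR DKO. The call of Gata6 ended under 6 of 17 settings, the same as for Palld (highest adjusted p 0.0752, without WT 1 and LXR DKO 1 together). That of Elk1 in LXR DKO against WT passed under 15 of 16 settings and ended without WT 1 and LXR DKO 1 together (adjusted p = 0.0605). In transgenic against WT it ended without that pair of libraries and without any 1 of WT 1, WT 2, transgenic 1 or transgenic 3 (highest adjusted p 0.0662, without transgenic 1).

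Other actins and other muscle types were measured alongside. Acta1, the alpha actin of skeletal muscle, was at 8.92 to 13.2 RPKM in all libraries, highest in LXR DKO 1, and its coding sequence is 85.4% identical to that of Acta2. Of 19 striated muscle genes only Acta1 and Mylpf were tested, and neither passed the adjusted threshold in any comparison. Over all genes, 10.6% passed in LXR DKO against WT, 0.116% in transgenic against LXR DKO and 11.9% in transgenic against WT. Mylpf was at 3.69 to 5.58 RPKM in WT, 2.56 to 3.17 in LXR DKO and 2.57 to 3.21 in transgenic libraries. Acta1 was at 11.1 to 12.4, 9.02 to 13.2 and 8.92 to 9.29 RPKM in the same order. Tnnc2, the troponin C of fast skeletal muscle, was at 0 in all 9 libraries, and Myh1 and Myh4, fast myosin heavy chains, at 0 in 7. The summed level of the striated list was 16.2 to 18.7 RPKM in WT, 12.7 to 17.1 in LXR DKO and 12.8 to 12.9 in transgenic libraries. Of 8 genes of cytoplasmic actin and myosin, which every cell uses, 0 passed the adjusted threshold in any comparison, and Actb stood at 869 to 1529 RPKM.

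Markers of cells that lie beside smooth muscle were set against the muscle genes library by library. The oviduct epithelium list comprises 11 genes and was led by Ovgp1, the oviduct-specific glycoprotein. Ovgp1 was at 52.2, 109 and 1125 RPKM in WT libraries 1 to 3, 226, 655 and 477 in LXR DKO libraries 1 to 3, and 1266, 1857 and 1679 in the same order in the transgenic ones. WT 3 and LXR DKO 2, where the muscle genes were high, also had the highest Ovgp1 of their genotypes. All transgenic libraries had more Ovgp1 than either, including transgenic 3 with its lower muscle values. Of the rest of the list, only Cdh1 was likewise higher in every transgenic library than in WT 3. The remaining genes were all higher in WT 3 than in transgenic 2, as was the list mean (5.31 against 4.66).

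**Figure D5:**
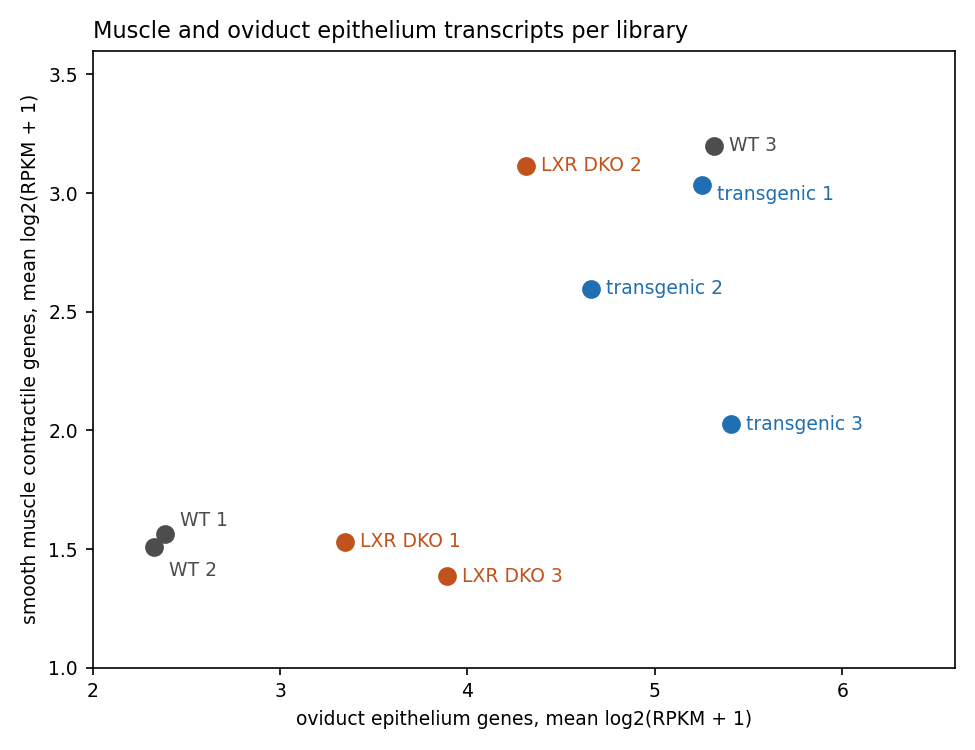
Mean log2(RPKM + 1) of the 9 smooth muscle genes against that of 11 oviduct epithelium genes, one labelled point per library, coloured by genotype. WT 3, LXR DKO 2 and transgenic 1 are above 3 on the muscle axis, while transgenic 3 has the highest epithelial mean (5.40) and a muscle mean of 2.03.

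The mean log2(RPKM + 1) of the 9 muscle genes was 1.56, 1.51 and 3.20 in the WT libraries, 1.53, 3.11 and 1.39 in those of LXR DKO, and 3.04, 2.60 and 2.03 in the transgenic ones. That of the epithelial genes was 2.38, 2.33 and 5.31 in the WT libraries, 3.35, 4.31 and 3.89 in those of LXR DKO, and 5.25, 4.66 and 5.40 in the transgenic ones. LXR DKO 3 had the lowest muscle mean of the 9 libraries with a higher epithelial mean than WT 1, WT 2 or LXR DKO 1. Acta2 was 13.4% of the Ovgp1 level in WT 1, 8.88% in LXR DKO 2, 5.49% in WT 3, 1.46% in LXR DKO 3 and 1.10% in transgenic 3. It was 5.44% in WT 2, 4.18% in transgenic 1, 3.47% in LXR DKO 1 and 2.16% in transgenic 2. The proportion of Acta2 to Ovgp1 thus differed between libraries, and ratios of other gene pairs from these lists were not taken. Of the 11 epithelial genes, 1 passed in transgenic against WT (Cdh1, E-cadherin, 1.80, adjusted p = 0.0466 in limma) and 0 in the other comparisons, with medians of 0.48, 1.16 and 1.80. Of all genes, 11.9% passed in transgenic against WT, 10.6% in LXR DKO against WT and 0.116% in transgenic against LXR DKO. Cdh1 passed under only 3 of 17 other settings, with an adjusted p of up to 0.130 without transgenic 1, and of single libraries only leaving out WT 3 kept it. The part that oviduct RNA has in the muscle values was not tested.

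Red cell transcripts, a measure of blood in a library, were highest in WT 3 and LXR DKO 2 (means of 7.31 and 5.30) but at 3.30 in transgenic 1, a library with high muscle genes. Summed over the list, red cell transcripts reached 58.6 to 9881 RPKM in WT, 152 to 971 in LXR DKO and 162 to 277 in transgenic libraries. Their part in the muscle values was not tested. Rgs5, a marker of pericytes, the contractile cells of small vessels, was low throughout but had the same 3 highest libraries as Acta2. It measured 0.00999, 0.00594 and 0.224 RPKM in the WT libraries and 0.0157, 0.263 and 0.0574 in those of LXR DKO. In the transgenic ones it was at 0.309, 0.198 and 0.0843. Notch3 was highest in transgenic 3, at 0.758 RPKM, and stood at 0.145 in WT 3. Pdgfrb and Cspg4, which pericytes share with other cells, ranged only from 0.951 to 2.18 and from 5.56 to 11.1 RPKM. Of 10 pericyte genes, Rgs5, Kcnj8, Higd1b and Rgs4 had WT 3, LXR DKO 2 and transgenic 1 as their 3 highest libraries. The others had a different set. The mean log2(RPKM + 1) of the list was 0.899, 0.810 and 0.845 in the WT libraries and 0.830, 1.11 and 0.802 in those of LXR DKO. In the transgenic ones it was 1.09, 1.01 and 1.01. Of the 10 genes 3 were tested, and 0 passed the adjusted threshold in any comparison. The summed pericyte list was 12.0 to 20.9 RPKM in WT, 15.3 to 19.2 in LXR DKO and 18.8 to 21.9 in transgenic libraries, and its part in the muscle values was not tested. Fibroblasts surround smooth muscle, and the mean log2(RPKM + 1) of 9 fibroblast and stroma genes was highest in the same 3 libraries as the muscle genes. It was 1.24, 1.04 and 1.61 in the WT libraries, 1.22, 1.61 and 0.96 in those of LXR DKO, and 1.69, 1.43 and 1.39 in the transgenic ones. Col1a1 and Col1a2 encode the chains of type I collagen, and Lum a proteoglycan. Their 3 highest libraries were also WT 3, LXR DKO 2 and transgenic 1. They ranged over 0.221 to 1.49, 0.133 to 1.40 and 0.0829 to 1.11 RPKM. The other genes of the list, Pdgfra, Dcn, Col3a1, Fbln1, Mfap5 and Dpt, each had a different set of 3 highest libraries. Of the 9 genes only Dpt was at 0 in a library, LXR DKO 3. Summed over the list, fibroblast transcripts were at 38.8 to 50.7 RPKM in WT, 32.8 to 53.5 in LXR DKO and 39.1 to 46.0 in transgenic libraries, most of it Fbln1, and their part in the muscle values was not tested.

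Of the 4 theca genes listed, the steroidogenic markers were near 0, with Cyp17a1 at 0 to 0.119 and Insl3 at 0 to 0.115 RPKM. Tcf21 was at 0 to 0.251 RPKM. Ptch1, the only one tested, was present in every library, with means of 3.36 RPKM in WT, 4.45 in LXR DKO and 4.46 in transgenic. The part that theca RNA has in the muscle values was not tested.

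Genes whose pattern over the 9 libraries was most like the mean of the 9 muscle genes were ranked by Pearson's r of log2(RPKM + 1), as a description over libraries that share depth and scaling. Outside the 9 genes the highest was Mustn1, a small nuclear protein of the musculoskeletal system that is also on the list of other apparatus (r = 0.985), at 0.240 to 1.75 RPKM. It was followed by Jchain, which joins secreted immunoglobulins (0.973), Mfap4, a protein of elastic microfibrils (0.963), and Igkv8-30, an immunoglobulin light chain segment (0.959). Ssr4 (0.947), Dmpk, the myotonic dystrophy kinase (0.944), the ribosomal protein gene Rpl5 (0.940) and Cars2 (0.938) came next. Jchain measured 1.13, 1.60 and 8.33 RPKM in the WT libraries, 1.60, 9.19 and 1.84 in those of LXR DKO, and 9.83, 4.43 and 2.34 in the transgenic ones, so that WT 3, LXR DKO 2 and transgenic 1 were the highest here too. Ssr4, Rpl5 and Cars2 varied by no more than 1.28-fold over the 9 libraries.

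After the mean of each genotype was taken off both values, the 8 highest were Mustn1 (0.988), Faah (0.982), Jchain (0.980), Ssr4 (0.974), Igkv1-110 (0.973), Igkv1-117 (0.968), Igkv8-30 (0.962) and Bgn, the matrix proteoglycan biglycan (0.962). Immunoglobulin segments have close copies, so the value of any 1 of them is uncertain. Among the 9 muscle genes themselves, r with their mean before this step was 0.994 for Des, 0.992 for Actg2, 0.989 for Acta2 and for Cnn1, 0.982 for Tagln, 0.967 for Myl9, 0.881 for Myh11 and -0.578 for Synm. The values of each gene enter that mean.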

How the data were processed

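The authors deposited 1 matrix of RPKM values for 54838 mouse genes in 9 libraries, with 0 columns unused here. The submitters' processing notes list the mm10 build with DESeq2 1.2.8, HTSeq 0.5.4p5, HISAT2 2.1.0 and cutadapt, without roles. Annotation release, strand setting and treatment of multi-mapping reads were not given in the sources used here. Columns were matched to samples by name, the transgenic ones through TG and their number. Genes that reached 1 RPKM in 3 or more libraries (16422) were fitted as log2(RPKM + 1) with limma 3.58.1 in R 4.3.3. All 9 libraries entered 1 fit on genotype alone, with a mean-variance trend, and Benjamini-Hochberg adjustment over the 16422 genes (threshold 0.05). The pseudocount of 1 understates changes of low genes. The fit was tested on simulated data. Reads were worked back from RPKM steps with GENCODE M21 exon lengths: all values were whole reads, within 0.02, for 37146 of 37863 genes (98.1%). Acta2 gave whole reads only with a length of 1781 bases in place of 2196, which scales its level in all libraries alike. Intervals cover counting error only. Promoters came from RefSeq (GRCm38.p6) by symbol. The 9 members and 15 gene lists were chosen with earlier results of these data known. The text names the members, listed genes past the threshold, up to 5 per other smooth muscle list with the smallest adjusted p with Myocd and Srf, the first markers of other lists, and the 8 genes most like the members' mean. Other names (Acta1, Actb, Actg1, Tnnc2, Myh1, Myh4, Inha, Cyp19a1, Insl3, Ptch1, Tcf21, Mylpf, Notch3, Cspg4, Kcnj8, Higd1b, Rgs4, Pdgfra, Dcn, Lum, Col1a1, Col1a2, Col3a1, Fbln1 and Dpt) were chosen after values were seen. Alternatives comprised the pseudocount, filters, quantile normalization, voom, a replicate block, fits of 2 genotypes and left-out libraries.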

Additional observations from a re-analysis of the deposited data

How the results depend on the processing

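Across 17 other settings, 0 of the tested muscle genes passed in any of the 3 comparisons. A stricter filter (mean RPKM of at least 5) tested only Acta2, Actg2, Myl9 and Synm. Of 132 log2 fold changes per comparison under these settings, 20, 2 and 3 turned sign (LXR DKO against WT, transgenic against LXR DKO, transgenic against WT), none past the threshold before or after. In LXR DKO against WT, quantile normalization gave -0.094 for Des and -0.12 for Tagln. Without both oocyte-containing libraries, Synm gave 0.085 there and Myl9 -0.16 in transgenic against WT. Leaving out each library in turn, values in LXR DKO against WT ran from -0.85 to 1.12 for Acta2, -1.05 to 0.95 for Actg2, -1.05 to 0.40 for Cnn1, -0.66 to 0.83 for Des, -0.21 to 0.58 for Myh11, -1.29 to 0.11 for Myl9 and -0.33 to 0.51 for Tagln, each lowest without LXR DKO 2 and highest without WT 3 (Myh11 without LXR DKO 3). In transgenic against LXR DKO they ran from -0.24 to 0.56 for Myh11 and -0.36 to 0.0081 for Synm. In transgenic against WT they ran from -0.037 to 1.18 for Cnn1 and -0.16 to 0.96 for Myl9. The cause was not tested.

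The replicate block passed 0 genes too (Acta2 in transgenic against WT: adjusted p = 0.489 in limma). Same-numbered libraries deviated with correlations from -0.293 to 0.672, so the numbers were not taken to pair them. The settings for genes outside the 9 were added after the data were seen. At this depth Lmod1 rests on as few as 2 reads.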

Other observations

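Lists of other cell types were also tested in limma, with the values below. Over all genes, 10.6% passed in LXR DKO against WT, 0.116% in transgenic against LXR DKO and 11.9% in transgenic against WT. Of 10 endothelial genes 3 were tested, and Esam, a junction protein of endothelium and platelets, rose in transgenic against WT (1.38 ± 0.21, adjusted p = 0.00662), while Pecam1 stood at 0.928 to 3.16 RPKM in all libraries. Of 4 tested fibroblast genes, Mfap5, a microfibril protein, rose in LXR DKO against WT (0.55 ± 0.14, adjusted p = 0.0457). Of 8 macrophage genes, Cd68, a lysosomal protein, fell in transgenic against LXR DKO (-1.15, adjusted p = 0.0402), and Cd68 with the complement genes C1qa, C1qb and C1qc fell in transgenic against WT (-1.23, -1.45, -1.15 and -1.35). Of 9 tested granulosa genes, Hsd17b1, an enzyme of estradiol synthesis, fell in LXR DKO (-1.32) and transgenic (-1.03) against WT, as did Fst, which encodes follistatin (-0.78 and -0.96), and Inhba, an activin and inhibin subunit (-0.89 and -0.76). None of the tested mesothelial (5), theca (1), oocyte (6) or red cell (5) genes passed in any of the 3 comparisons. Values under other settings are not given for the genes of this paragraph.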
